A study of Mus musculus with 17 samples.

Results

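The comparison described here is that of tibialis anterior muscle given a p53 plasmid with the same muscle given a control plasmid. It rests on the 8 arrays whose titles name a transfection, 4 with the p53 plasmid and 4 with the control plasmid, out of 17 arrays in the series. Both groups were wild type C57BL/6 males aged 8 weeks, and the tibialis anterior, the muscle at the front of the shin, was taken at 3 days. Every control muscle had therefore been transfected too, and no array of untransfected muscle belongs to the experiment. The other 9 arrays come from immobilization: littermate control mice gave mobile and immobile hindlimbs, and p53 mKO mice, whose name the labels leave unexplained, gave immobile ones, with 3 arrays a group and males of the same age throughout. The labels give neither the promoter nor the dose of the plasmids, nor the share of fibres that took them up, and they do not say which muscles shared a mouse. Each p-value below therefore measures the spread between arrays, which may be technical.

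The protein p53 is a transcription factor that is held at a low level in unstressed cells, chiefly because the ubiquitin ligase Mdm2 sends it to the proteasome. Once stabilised by DNA damage or other stress, it binds pairs of half-sites near its target genes and raises genes that halt the cell cycle, such as Cdkn1a, and genes of DNA repair and of apoptosis. Skeletal muscle is mostly long multinucleate fibres that have left the cell cycle, with macrophages, fibroblasts, vessel cells, nerve and satellite cells between them, and an extract of the whole muscle holds the RNA of all of these.

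Of 16593 named genes with a probe, 10398 were bright enough to be tested, and 6195 were not. A gene is said to have risen or fallen where its Benjamini-Hochberg adjusted p in limma was under 0.05, and every difference is that of p53 plasmid minus control plasmid on the log2 scale, where 1 unit is a doubling. On this rule 3144 genes rose (30.2% of those tested) and 2969 fell (28.6%), 58.8% in all. The values of the 4 and 4 arrays did not overlap for 55.1% of genes tested. Most of these differences were small: 255 of the risen and 202 of the fallen genes differed by at least 2-fold, and the quartiles of all genes lay at -0.15 and 0.16. A list of genes is read below against these shares, since a list with about 30.2% of its members risen does no more than the table as a whole. The first principal component of the 8 arrays held 86.6% of their variance, with the control arrays between -24.04 and -19.81 and the p53 arrays between 18.03 and 30.21, the highest being p53 array 2. Trp53, the gene that encodes p53, had no listed probe, so the plasmid was not checked at its own gene. The labelled tissue was checked at muscle genes, and Ckm and Myh4 stood at 15.34 ± 0.02 and 14.90 ± 0.05 (SD, n = 4) on the control arrays, near the top of the scale of 8.21 to 15.61.

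**Figure D1:**
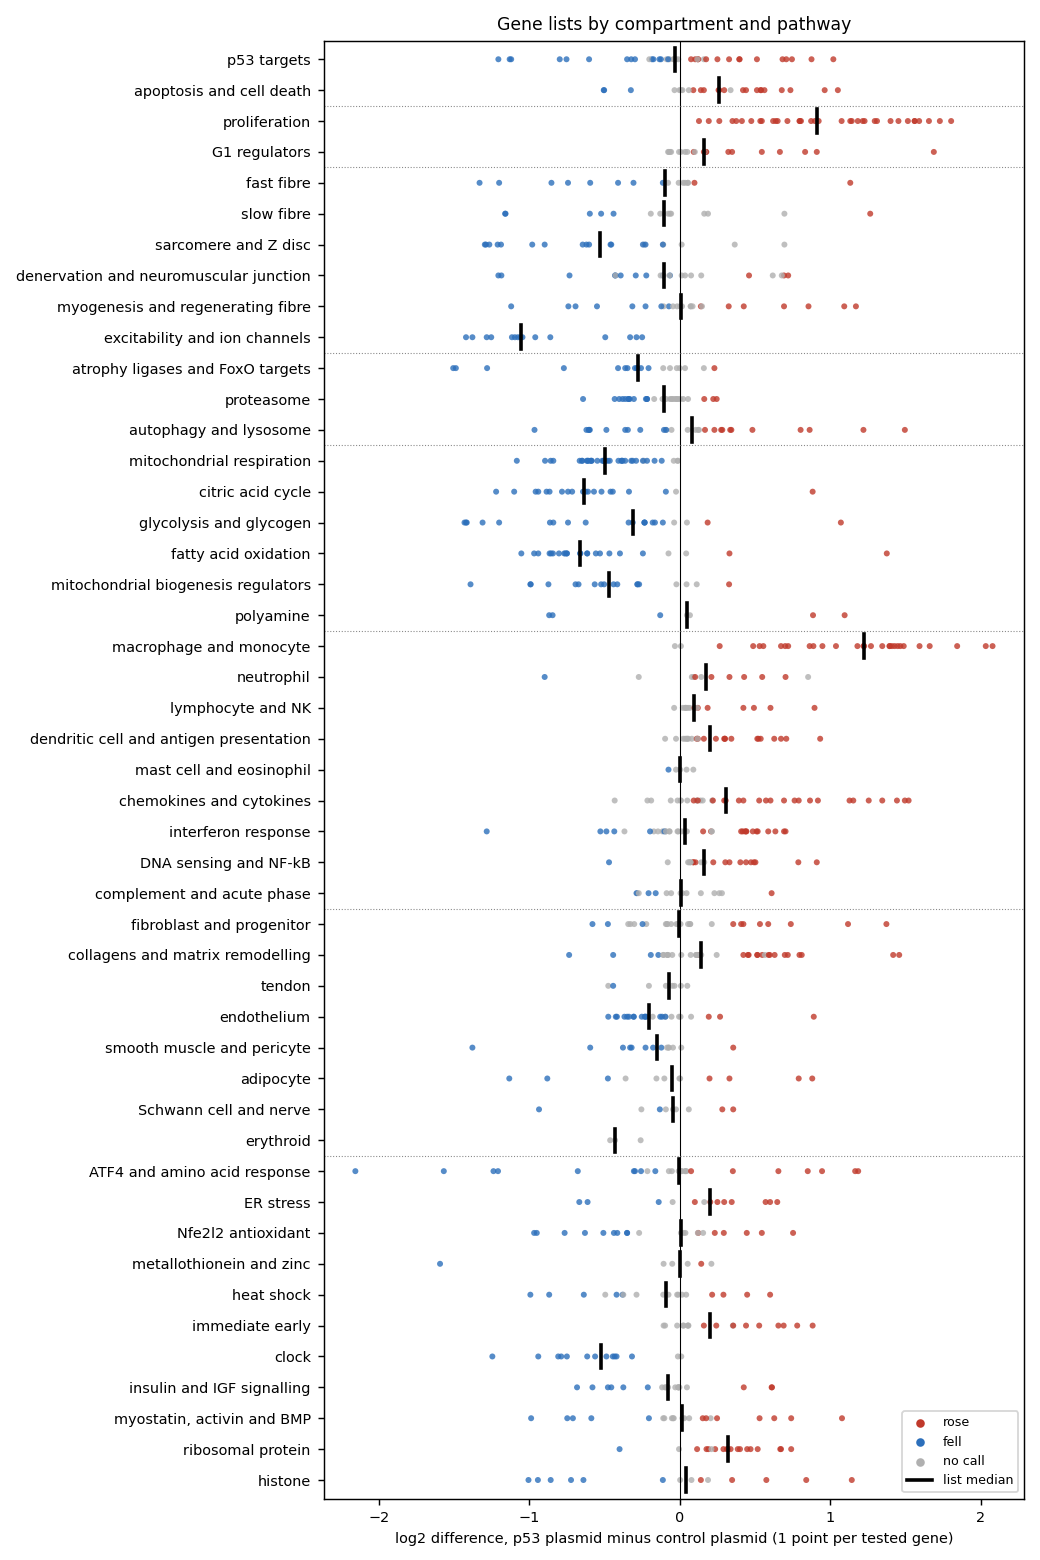
Each point is 1 tested gene of the list named on the vertical axis, placed on the horizontal axis by its log2 difference between p53 plasmid and control plasmid; red points rose, blue points fell, grey points passed no threshold, and the black bar is the list median. The macrophage and proliferation lists lie almost wholly to the right of 0, and those of ion channels and mitochondrial respiration wholly to the left. The other lists of energy metabolism, polyamine genes apart, lie mostly to the left, and the p53 targets are spread to both sides.

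The p53 target list held 54 genes, of which 49 had a probe and 39 were tested. Of the 39, 15 rose (38.5%), 14 fell (35.9%) and 10 passed no threshold, with a median difference of -0.035 against 0 over all genes tested. The fallen count was 9 without both arrays numbered 1, or without both numbered 2. The summed linear level of the 49, in which bright genes weigh most, was 87900 to 94798 on the control arrays and 76270 to 79046 on the p53 arrays. The targets thus moved to both sides, and the share on each side was close to that of all genes. The promoters of 3 targets are shown first, because they hold a sequence match to the p53 half-site and their genes moved in opposite directions. The windows run from 250 bases before to 50 bases after the RefSeq gene start (GRCm38.p6), read 5′ to 3′ on the gene's strand, with matches to the p53 half-site consensus in capitals. That of Cdkn1a lies on the plus strand at chr17:29090729-29091028, that of Gadd45a on the minus strand at chr6:67037358-67037657, and that of Ccng1 on the minus strand at chr11:40755237-40755536.
Cdkn1a: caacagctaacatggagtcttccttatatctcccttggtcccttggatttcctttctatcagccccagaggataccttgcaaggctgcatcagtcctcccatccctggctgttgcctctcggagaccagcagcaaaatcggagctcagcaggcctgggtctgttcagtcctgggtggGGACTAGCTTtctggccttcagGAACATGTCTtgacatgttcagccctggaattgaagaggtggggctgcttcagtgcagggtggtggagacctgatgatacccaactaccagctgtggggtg
Gadd45a: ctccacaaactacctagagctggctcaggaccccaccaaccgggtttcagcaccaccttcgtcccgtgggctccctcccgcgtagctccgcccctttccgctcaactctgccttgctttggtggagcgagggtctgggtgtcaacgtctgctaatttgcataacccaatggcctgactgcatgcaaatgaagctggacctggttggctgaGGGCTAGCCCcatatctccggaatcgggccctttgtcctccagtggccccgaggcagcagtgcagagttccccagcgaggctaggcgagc
Ccng1: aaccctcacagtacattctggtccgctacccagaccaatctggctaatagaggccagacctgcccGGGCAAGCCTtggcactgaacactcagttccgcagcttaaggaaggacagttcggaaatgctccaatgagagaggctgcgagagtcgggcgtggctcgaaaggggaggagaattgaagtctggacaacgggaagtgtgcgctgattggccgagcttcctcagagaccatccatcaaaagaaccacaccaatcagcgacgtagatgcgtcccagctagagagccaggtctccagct
The Cdkn1a window held 2 matches, which start 73 and 51 bases before the gene start and together count as a full site (a pair of half-sites with 0 to 13 bases between them). The windows of Gadd45a and Ccng1 held 1 match each. A second RefSeq window of Cdkn1a, downstream of the first at chr17:29093519-29093818, held no match. The distances of 73 and 51 bases thus belong to the first start only.

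Cdkn1a, the cyclin-dependent kinase inhibitor p21, stood at 11.13, 11.66, 11.09 and 11.89 on the control arrays and at 12.40, 12.66, 12.45 and 12.34 on the p53 arrays. Every p53 array was above every control array, and the gene rose by 1.02 ± 0.18 (SE), or 2.03-fold (adjusted p = 0.00143, n = 4 and 4). All 3 Cdkn1a probes were called, and they ran from 0.557 to 1.02, so the value given is the largest. The control arrays were themselves above the mobile control limbs of the other experiment, whose mean was 10.11 ± 0.15 (SD, n = 3).

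Gadd45a, which p53 induces after DNA damage, went the other way. Its values were 11.30, 11.73, 11.28 and 13.16 on the control arrays and 10.66, 10.62, 10.98 and 10.39 on the p53 arrays. The groups did not overlap, but control array 4 stood far above the other controls. The gene fell by 1.21 ± 0.40 on the log2 scale (adjusted p = 0.029), and the call did not hold in 9 of the alternatives tried. Without control array 4 the fall was 0.77 with an adjusted p of 0.00484. Leaving out control array 2 gave an adjusted p of 0.0529, and leaving out p53 array 1, 2 or 4 gave 0.0596, 0.0594 and 0.0711.

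Phlda3, an inhibitor of Akt signalling that p53 induces in several tissues, stood at 13.14, 13.15, 12.90 and 13.10 on the control arrays and at 12.21, 11.55, 12 and 12.05 on the p53 arrays. It fell by 1.12 ± 0.13 (adjusted p = 0.000167), and its control values had little spread. Ccng1, which encodes cyclin G1, a feedback partner of Mdm2, was at 13.80, 13.60, 13.74 and 13.68 on the control arrays and at 13.06, 12.66, 13.08 and 13.01 on the p53 arrays. Its groups lay apart as well, with a fall of 0.75 ± 0.09 (adjusted p = 0.000218).

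Mdm2 itself was at 11.24, 11.20, 11.20 and 11.38 on the control arrays and at 11.58, 11.42, 11.35 and 11.31 on the p53 arrays. These groups overlapped, and the difference of 0.16 ± 0.07 passed no threshold (adjusted p = 0.0671). Of 2 tested Mdm2 probes, 1 was called, and the 2 differences were 0.02 and 0.26. Trp53inp1, a p53-induced nuclear protein gene, differed by -0.07 ± 0.05 (adjusted p = 0.276).

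The risen targets after Cdkn1a were led by Gtse1, a gene of G2 and S phase, at 0.88 ± 0.07, the polo-like kinase genes Plk2 at 0.75 ± 0.09 and Plk3 at 0.71 ± 0.06, Apaf1, which encodes the scaffold of the apoptosome, at 0.68 ± 0.05, and Sesn1, a stress-induced regulator of mTORC1, at 0.51 ± 0.11. The fallen targets after Gadd45a were led by Ak1, the muscle adenylate kinase gene, at -1.13 ± 0.13, by Phlda3, by Tigar, a regulator of glycolysis, at -0.80 ± 0.08, by Ccng1, and by Rrm2b, a subunit of the p53-inducible ribonucleotide reductase, at -0.60 ± 0.05. The 3 Rrm2b probes included 1 that was bright enough to be tested. The remaining targets that passed the threshold moved by less than Sesn1 or Rrm2b did, as the plot of all tested targets shows.

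**Figure D2:**
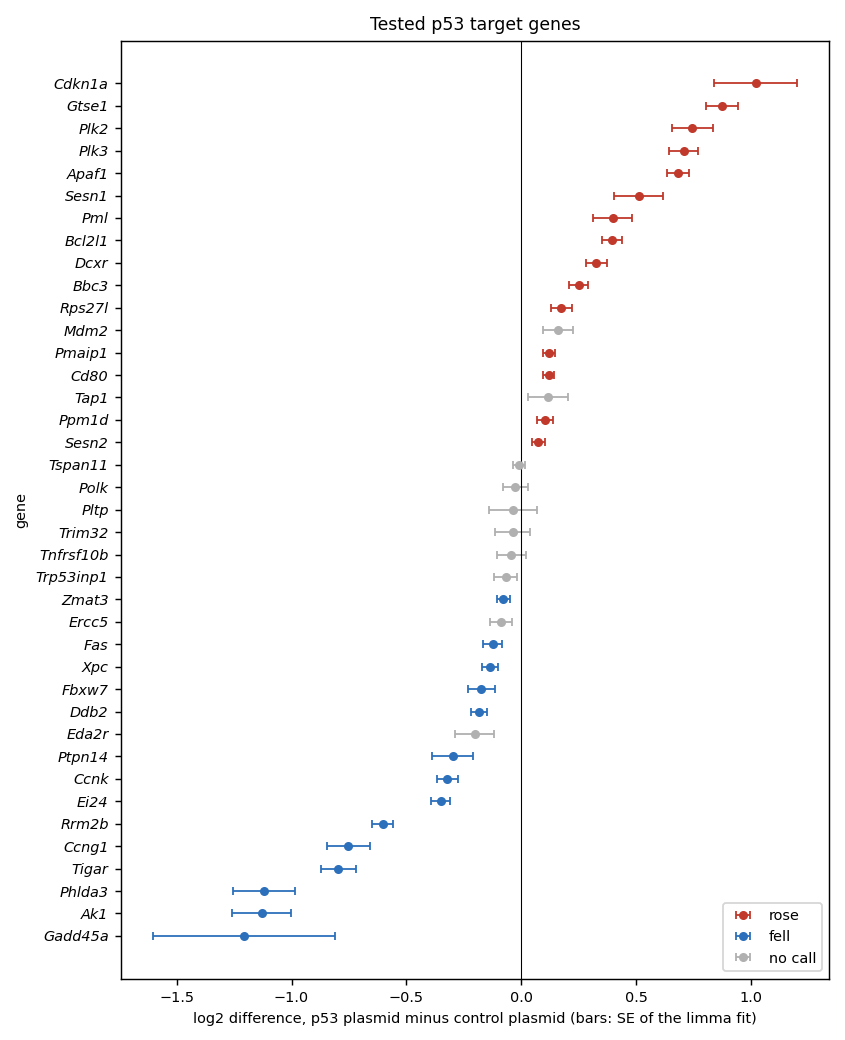
The 39 tested p53 target genes are ordered by their log2 difference between p53 plasmid and control plasmid on the horizontal axis; points are the differences, bars the SE of the limma fit, and colours show 15 risen, 14 fallen and 10 uncalled genes. Cdkn1a stands at the top at 1.02 and Gadd45a at the bottom at -1.21 with the widest bar.

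The half-site was found in 26.1% of 46 windows of tested p53 targets and in 7.08% of 10865 windows of all tested genes with a window. Genes that rose held it in 6.62% of their windows, and genes that fell in 7.24%. Among the targets with a match, 6 rose, 3 fell and 3 passed no threshold. The full site was present in 5 windows of tested genes. Both strands are read at once, because the half-site consensus is its own reverse complement. A match describes letters only, and says nothing of binding in these muscles.

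Of 25 tested genes of apoptosis and cell death, 16 rose (64%) and 3 fell (12%), with a median of 0.26. Casp8, the initiator caspase of death receptors, stood at 9.72, 9.80, 9.86 and 9.64 on the control arrays and at 10.69, 10.69, 10.62 and 10.87 on the p53 arrays. It rose by 0.96 ± 0.06 (adjusted p = 1.63e-05). Bid, which the same caspase cleaves to reach the mitochondrion, rose by 0.68 ± 0.06 (adjusted p = 3.79e-05) on its brighter probe. A second Bid probe differed by -0.01.

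Genes of cell division rose together. All 36 tested genes of the proliferation list rose (100%, against 30.2% of all genes), by 0.13 to 1.80 with a median of 0.91, and the values of the 2 groups overlapped for none of them. The list of 48 genes has 42 with a probe, and the 6 that were too dim to be tested are not part of this count. A dim gene could be tested on its values in the 4 p53 arrays alone, so the share risen may lean upward. The promoters of Cdk1 and Cenpa are shown because they hold the CCAAT box and the letters TTTGAA, the cell cycle element known as CHR, both common in genes of G2 and M phase. Matches on either strand are in capitals, so that CCAAT may appear as ATTGG and TTTGAA as TTCAAA. The Cdk1 window lies on the minus strand at chr10:69352863-69353162 and the Cenpa window on the plus strand at chr5:30666636-30666935.
Cdk1: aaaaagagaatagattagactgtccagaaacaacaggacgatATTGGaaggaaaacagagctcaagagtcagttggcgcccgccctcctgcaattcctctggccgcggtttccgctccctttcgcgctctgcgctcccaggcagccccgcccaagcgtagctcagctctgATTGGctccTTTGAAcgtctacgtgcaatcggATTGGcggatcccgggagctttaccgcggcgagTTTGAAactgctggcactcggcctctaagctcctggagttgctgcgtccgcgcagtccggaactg
Cenpa: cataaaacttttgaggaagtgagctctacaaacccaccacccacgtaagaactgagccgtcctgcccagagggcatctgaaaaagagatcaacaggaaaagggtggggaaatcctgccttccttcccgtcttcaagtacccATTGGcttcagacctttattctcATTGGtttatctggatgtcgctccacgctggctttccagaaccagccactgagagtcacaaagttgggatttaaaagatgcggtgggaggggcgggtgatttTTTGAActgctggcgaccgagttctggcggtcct
Among windows of tested proliferation genes, 67.6% held CCAAT and 43.2% held TTTGAA, against 37% and 12.1% of the windows of all tested genes. Genes that rose, taken as a whole, held them in 37.7% and 13% of windows. A CCAAT match overlapped a TTTGAA match in 14 windows of tested genes.

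Cenpa encodes the histone H3 variant of the centromere. It was at 10.82, 11.10, 10.67 and 10.74 on the control arrays and at 12.30, 12.91, 12.60 and 12.73 on the p53 arrays, and rose 3.49-fold (log2 difference 1.80 ± 0.14, adjusted p = 2.55e-05). The mitotic kinase gene Cdk1 was at 9.03, 9.24, 9.05 and 8.90 against 10.56, 10.98, 10.49 and 10.55, and rose 3.01-fold (1.59 ± 0.12). In both genes p53 array 2 was the highest, and the gap between the groups was wider than the spread within either. Cdt1, which licenses replication origins, rose by 1.56 ± 0.08, Birc5, the survivin of the mitotic spindle, by 1.45 ± 0.09, and Mcm6, a subunit of the replicative helicase, by 1.23 ± 0.06. Fen1, a flap endonuclease of DNA replication, rose by 0.92 ± 0.04.

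Of 22 tested regulators of G1, 11 rose (50%) and none fell. Ccnd1, which encodes cyclin D1, stood at 11.60, 11.55, 11.57 and 11.32 on the control arrays and at 13.20, 13.50, 12.95 and 13.14 on the p53 arrays, a 3.22-fold rise (1.69 ± 0.11, adjusted p = 1.65e-05). It was the widest change of the G1 list, followed by Cdk2 at 0.91 ± 0.07 and E2f1 at 0.83 ± 0.07. Ccnd1 and the kinase inhibitor gene Cdkn1a, which are named together in most accounts of G1, thus both rose.

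The 6 largest rises in the table were histone H2A genes of chromosome 13: H2ac10 (2.44 ± 0.20), H2ac24 (2.35 ± 0.21), H2ac22 (2.34 ± 0.15), H2ac15 (2.24 ± 0.15), H2ac7 (2.19 ± 0.14) and H2ac12 (2.11 ± 0.16). H2ac10 was at 10.22, 9.98, 10.13 and 9.30 on the control arrays and at 12.36, 12.61, 12.32 and 12.10 on the p53 arrays. Control array 4 was the lowest array for all 6. These genes are near-identical copies that 1 transcript can light up together, so they are counted as uncertain and not as 6 separate findings. None of these 6 is in the histone list, where 5 of 14 tested genes rose and 6 fell: the variant H2az1 rose by 1.14 ± 0.08, while H1f2, a linker histone gene, fell by 0.94 ± 0.09 and H2bc12 fell by 0.72 ± 0.07.

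Macrophage and monocyte genes were the other group that rose as a block. Of 30 tested, 28 rose (93.3%) and none fell, with a median of 1.22. The other two were the scavenger receptor genes Cd163 (-0.03 ± 0.09, adjusted p = 0.793) and Marco (0.01 ± 0.04, adjusted p = 0.888). Of the 40 genes listed, 34 had a probe, and Ccr2, Cd5l, Cybb and Msr1 were too dim to be tested. Their summed level, taken after turning log2 values back to a linear scale, was 135027 to 155594 on the control arrays and 301928 to 336906 on the p53 arrays. The mobile control limbs were at 31871 to 38730, so that the control plasmid arrays already lay above them, although the 2 experiments were separate and this difference was not tested. In whole muscle, more cells of a type and more RNA per cell cannot be told apart, nor can fewer cells and less RNA per cell.

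Trem2, a lipid-sensing receptor of macrophages, was at 10.83, 11.06, 10.78 and 10.66 on the control arrays and at 12.77, 13.15, 12.70 and 13.02 on the p53 arrays. Its rise was 4.22-fold (2.08 ± 0.12, adjusted p = 1.07e-05). Chil3, a chitinase-like protein secreted by mouse macrophages, was at 10.16, 9.72, 9.91 and 9.93 against 12.05, 12.20, 11.62 and 11.98, a 4.09-fold rise (2.03 ± 0.13). All p53 arrays were well above all control arrays for both genes. Adgre1, the surface antigen by which mouse macrophages are usually recognised, rose by 1.27 ± 0.13, Tyrobp, the adaptor that Trem2 signals through, by 1.66 ± 0.09, and Fcgr3, an Fc receptor for IgG, by 1.40 ± 0.07. Gpnmb, a glycoprotein of lipid-laden and lysosome-rich macrophages, had the smallest p of the list (1.43 ± 0.04, adjusted p = 3.57e-06). Its 4 probes ran from 0.375 to 2.158.

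Outside this list and below the H2A genes, the largest rises with no overlap were those of Cd84, a receptor of the SLAM family (1.86 ± 0.11), Lat2, an adaptor of myeloid and B cells (1.84 ± 0.11), Emp3, a membrane protein gene of many tissues (1.83 ± 0.15), Capg, an actin-capping protein gene of macrophages (1.82 ± 0.13), and Lhfpl2 (1.82 ± 0.07), followed by Cenpa and Gal. Clec4d, a C-type lectin receptor that is in the list, rose by 1.84 ± 0.16. Plin2, the coat protein of lipid droplets, rose by 1.59 ± 0.09. The joint list of autophagy and the lysosome split: of 28 tested genes, 11 rose and 11 fell. The risen ones included Ctsz (1.49 ± 0.10), Ctss (1.22 ± 0.13) and Laptm5 (0.86 ± 0.07), the last a pair that the macrophage list also holds, and the fallen ones included Ulk1, the kinase that starts autophagy, at -0.60 ± 0.05.

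**Figure D3:**
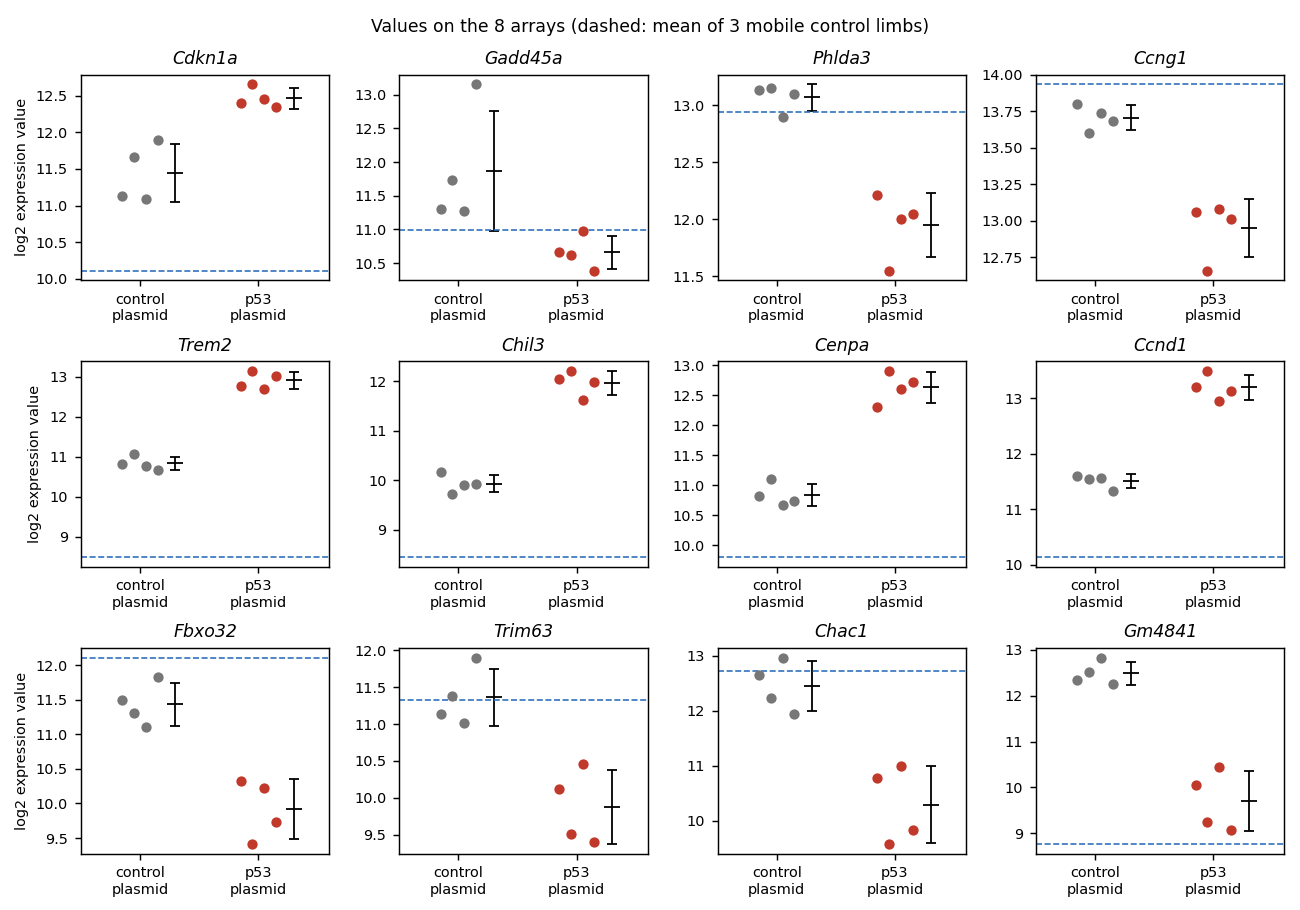
Log2 expression values of 12 genes on the 4 control plasmid arrays (grey) and the 4 p53 plasmid arrays (red); black marks are group means with SD, and the dashed line is the mean of the 3 mobile control limbs. Groups do not overlap for any of the 12, and control array 4, the rightmost grey point, stands alone in Gadd45a.

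Other immune lists moved less. Of 35 tested chemokines and cytokines, 22 rose (62.9%) and none fell. Ccl3, a chemokine for monocytes, rose 2.72-fold, from 8.96 ± 0.08 to 10.40 ± 0.16 (SD, n = 4 each), Pf4 rose by 1.15 ± 0.12, and Cxcl16 by 1.13 ± 0.07. Of 24 genes of dendritic cells and antigen presentation, 15 rose (62.5%) and none fell, among them the class II genes H2-DMa (0.71 ± 0.06), Cd74 (0.67 ± 0.06) and H2-Ab1 (0.63 ± 0.08). Of 15 tested genes of lymphocytes and natural killer cells, 7 rose (46.7%), 8 were not called and none fell. The rises were led by Klrd1, a natural killer receptor chain, at 0.90 ± 0.07, with Ccl5 at 0.60 ± 0.14 and Nkg7 at 0.49 ± 0.10. Among T cell genes, the probes of Cd3d, Cd3e and Cd3g differed by 0.043, 0.035 and 0.067 and were not called. All 3 probes of Cd28 were called, at 0.095 to 0.13. Of 12 tested neutrophil genes, 6 rose and 1 fell, and their summed level over 18 genes with a probe was 8165 to 8990 on the control arrays and 7973 to 11167 on the p53 arrays, which overlap. None of 5 tested mast cell and eosinophil genes rose, and 1 fell. The mean log2 level of the 10 with a probe was 8.471 to 8.507 on the control arrays and 8.492 to 8.515 on the p53 arrays. These levels lie near the array medians of 8.48 to 8.50, so a change of these cells could be missed. Of 15 genes of complement and the acute phase, 1 rose and 3 fell, and without control array 4 these counts were 3 and 5. The complement genes C1qa, C1qb and C1qc are counted in the macrophage list instead, and rose by 1.18, 1.225 and 1.345.

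Genes of nucleic acid sensing and NF-kB rose in 13 of 21 cases (61.9%) and fell in 1. Myd88, the adaptor of most Toll-like receptors, rose by 0.91 ± 0.08, Tlr7, a receptor for single-stranded RNA, by 0.79 ± 0.07, and Tbk1, the kinase that activates Irf3, by 0.47 ± 0.05. The interferon response split within itself, with 14 of 36 risen (38.9%) and 6 fallen (16.7%), the fallen count being 3 without control array 2 or without control array 3. Ifi27l2a rose by 0.69 ± 0.05, Irf8 by 0.59 ± 0.06 and Oasl2 by 0.51 ± 0.08, whereas Igtp, an interferon-inducible GTPase gene, was at 12.70, 13.19, 13.27 and 12.79 on the control arrays and at 12.02, 11.59, 12.06 and 11.15 on the p53 arrays, and fell by 1.28 ± 0.22 (adjusted p = 0.00122).

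The largest fall of all was also in a gene of the interferon-inducible GTPase family. Gm4841 stood at 12.34, 12.51, 12.83 and 12.26 on the control arrays and at 10.06, 9.25, 10.45 and 9.08 on the p53 arrays, a 6.85-fold fall (log2 difference -2.78 ± 0.30, adjusted p = 0.000106). Its mean in mobile control limbs was 8.76, so the control plasmid arrays were the high ones and the p53 arrays were nearer the level of the other experiment. Igtp showed the same order, with 9.34 in mobile control limbs. Mt3, a metallothionein gene, had it too: 11.02 ± 0.15 (SD) with the control plasmid, 9.43 ± 0.42 with the p53 plasmid and 8.60 in mobile control limbs. The summed interferon list was at 33063 to 35015 in mobile control limbs, 136607 to 174833 with the control plasmid and 130211 to 167545 with the p53 plasmid, so that the 2 transfected groups overlapped.

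Stromal genes were divided. Of 26 tested genes of fibroblasts and progenitors, 8 rose (30.8%) and 3 fell (11.5%), and of 35 genes of collagens and matrix remodelling, 16 rose (45.7%) and 4 fell (11.4%). Timp1, an inhibitor of matrix metalloproteinases, was at 11.61, 11.66, 11.55 and 11.49 on the control arrays and at 13.17, 13.32, 12.73 and 12.92 on the p53 arrays, a 2.75-fold rise (1.46 ± 0.12). Tgfbi, a matrix protein induced by TGF-beta, rose by 1.42 ± 0.09 and Vim, the vimentin gene of mesenchymal and myeloid cells, by 1.37 ± 0.09. Col1a1, the main fibrillar collagen gene, was at 11.96, 12.45, 12.08 and 12.39 against 12.84, 12.98, 12.14 and 13.18, with overlap, and passed no threshold (0.57 ± 0.22, adjusted p = 0.056). Of 8 tested tendon genes, none rose and 1 fell, a count that ran from 0 to 3 as single arrays were left out.

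More vessel genes fell than rose. Of 24 tested endothelial genes, 3 rose (12.5%) and 15 fell (62.5%), with a median of -0.20, and of 14 genes of smooth muscle and pericytes, 1 rose and 8 fell (57.1%). The falls were shallow: Robo4 fell by 0.43 ± 0.04, Aqp1, the water channel of capillaries, by 0.42 ± 0.04, and Pecam1, the junction protein CD31, by 0.35 ± 0.06. Other probes of Robo4 and Pecam1 differed by as little as 0.00 and -0.07. Ly6c1, which endothelial cells share with monocytes, was the widest endothelial change and rose by 0.89 ± 0.08. The summed endothelial level, in which bright genes weigh most, went against the counts, at 65410 to 71141 on the control arrays and 74374 to 78672 on the p53 arrays. Without Ly6c1, left out after its values were seen, the sums were 52556 to 54810 and 47010 to 50733. Abcc9, a subunit of ATP-sensitive potassium channels in pericytes and in muscle fibres, fell by 1.38 ± 0.12. Its 3 probes ran from -1.377 to -0.098. Adipocyte genes (4 of 12 risen, 3 fallen) and Schwann cell genes (2 of 9 risen, 2 fallen) moved to both sides, and none of 3 tested erythroid genes passed the threshold, although all 3 fell without control array 4.

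**Figure D4:**
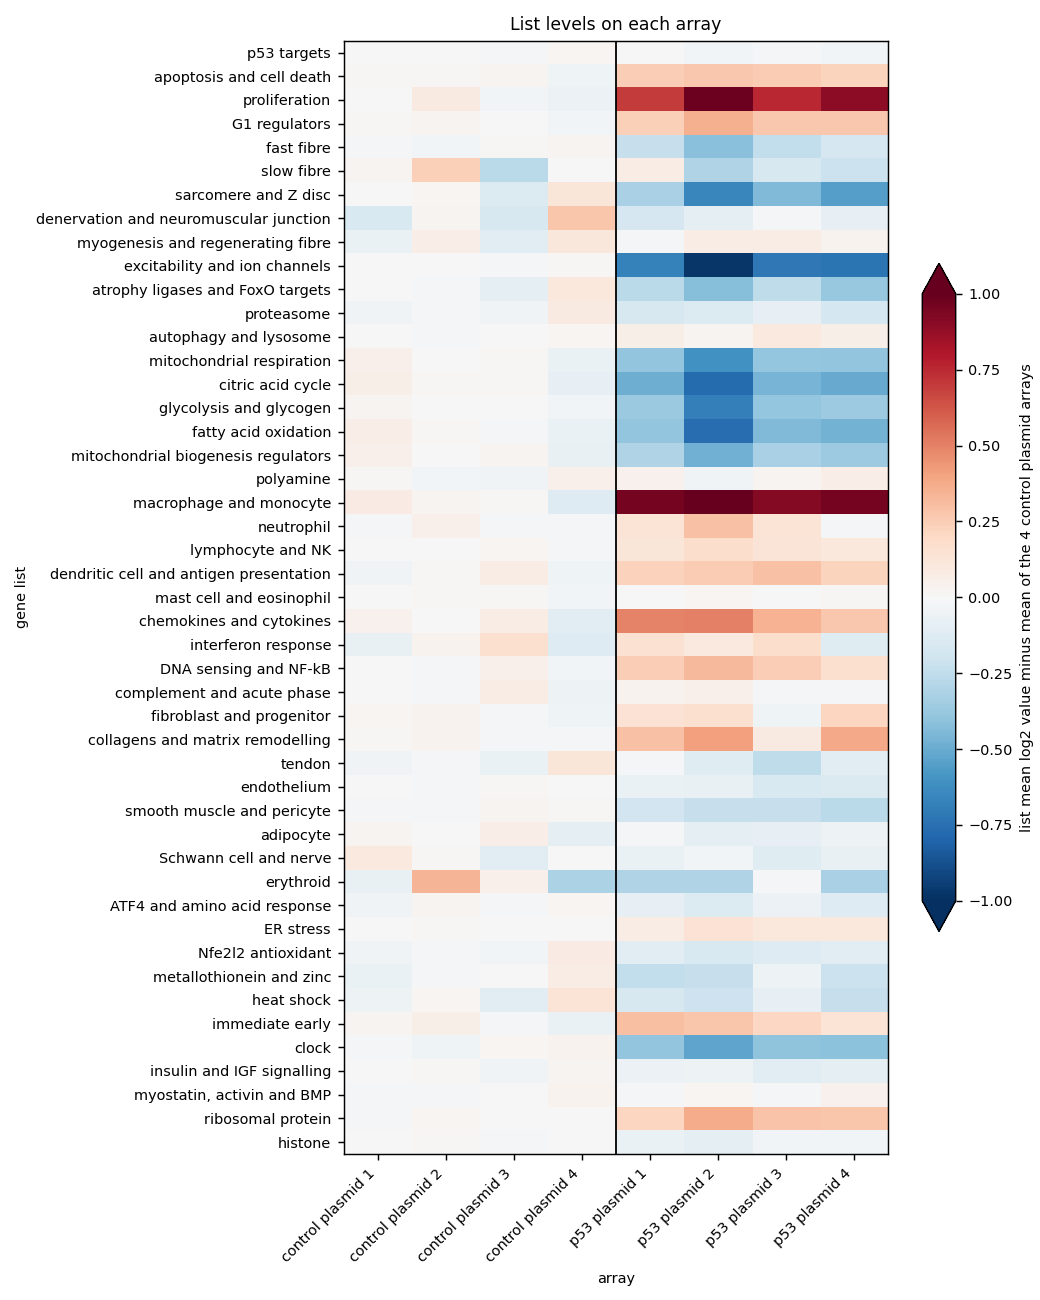
Each row is a gene list, each column 1 of the 8 transfection arrays, and colour gives the list's mean log2 value minus its mean over the 4 control plasmid arrays. The 4 control columns stay close to 0 for most lists, whereas the p53 columns are red for macrophage and proliferation genes. They are blue for ion channels and for energy metabolism, polyamine genes apart, with p53 array 2 often deepest.

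Genes of the muscle fibre fell, unevenly. All 15 tested genes of excitability and ion channels fell (100%, against 28.6% of all genes), with a median of -1.06. Atp1b2, a subunit of the sodium pump, was at 10.93, 10.86, 10.84 and 11.16 on the control arrays and at 9.69, 9.50, 9.72 and 9.75 on the p53 arrays, and fell by 1.28 ± 0.08 (adjusted p = 1.37e-05). Clcn1, the chloride channel that sets the resting conductance of the fibre, fell by 0.50 ± 0.03. Its 2 probes ran from -0.495 to -0.09. Of 20 genes of the sarcomere and Z disc, 15 fell (75%) and none rose, although 2 rose without control array 4. Myom1, which crosslinks the M band, fell by 1.27 ± 0.13, Ankrd23, a titin-binding stress sensor, by 1.29 ± 0.14, and Ttn, the titin gene, by 0.46 ± 0.04.

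Of the fibre type lists, the fast one fell in a larger share than all genes, and the slow one in a share nearer to theirs. Of 16 fast fibre genes, 8 fell (50%, against 28.6% of all genes) and 6 were not called. In this list 2 rose, or 1 without control array 2 or p53 array 2. Casq1, the calcium store protein of fast fibres, was at 12.75, 12.86, 12.91 and 12.88 against 11.84, 11.01, 11.51 and 11.72, and fell by 1.33 ± 0.16. Pygm, the glycogen phosphorylase whose loss causes McArdle disease, fell by 1.20 ± 0.19, Actn3 by 0.60 ± 0.09 and Myh4, the myosin IIb heavy chain, by 0.31 ± 0.06. The 3 probes of Actn3 ran from -1.535 to -0.595. Of 14 slow fibre genes, 5 fell (35.7%), 8 were not called and 1, Tpm3, rose by 1.27, the widest change of the list. All 4 Tpm3 probes were called, but in opposite directions, from -0.365 to 1.265. The fallen count was 3 without control array 2 or without p53 array 2, 3 or 4. Among the fallen, Myl2, the slow regulatory light chain, was down by 1.16 ± 0.29 and Mybpc1 by 0.52 ± 0.09. p53 array 2 was the lowest array for Casq1, Pygm, Actn3, Myh4 and Myl2. Tpm1, a tropomyosin gene that non-muscle cells also use, rose by 1.13 ± 0.09 and was the widest rise of the fast list. Some of the brightest muscle genes lay near 15.61, the highest value on any array. A fall may be compressed there, which was not tested. Ckm, the muscle creatine kinase, went from 15.34 ± 0.02 to 15.10 ± 0.17 (SD), a fall of 0.24 that was 0.16 without p53 array 2. The call did not hold without control array 1, 3 or 4 (adjusted p = 0.052, 0.0518 and 0.0558).

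Genes of denervation and the neuromuscular junction were not moved as a block. Of 23 tested, 3 rose and 10 fell (43.5%), and without control array 4 the risen count was 6. Chrna1, the acetylcholine receptor subunit alpha 1, was at 11.94, 12.49, 11.69 and 12.98 on the control arrays and at 12.79, 13.12, 12.97 and 13.10 on the p53 arrays, with overlap. Its rise of 0.72 ± 0.26 (adjusted p = 0.0404) did not pass in 12 of the alternatives, among them the fits without any 1 array other than control array 4, whose adjusted p was 0.0531 to 0.105. Runx1, a transcription factor induced in denervated muscle, rose by 0.46 ± 0.11, Hdac4, a deacetylase that acts downstream of denervation, fell by 0.73 ± 0.17, and Ache, the acetylcholinesterase gene, fell by 0.22 ± 0.03. Control array 4 was the highest control for Chrna1, Runx1 and Hdac4, as it was for Gadd45a. Genes of myogenesis and regenerating fibres moved to both sides, with 7 of 24 risen and 8 fallen.

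Among genes of protein breakdown, the atrophy ligases fell in the largest share. Of 19 tested atrophy ligases and FoxO targets, 12 fell (63.2%) and 1 rose. Fbxo32, the ubiquitin ligase atrogin-1, was at 11.50, 11.30, 11.10 and 11.82 on the control arrays and at 10.33, 9.41, 10.23 and 9.73 on the p53 arrays, a 2.84-fold fall (log2 difference -1.51 ± 0.23, adjusted p = 0.000612). Trim63, the ligase MuRF1 of the sarcomere, was at 11.14, 11.38, 11.02 and 11.90 against 10.12, 9.51, 10.46 and 9.40, a 2.80-fold fall (-1.49 ± 0.28, adjusted p = 0.00176). Both genes had non-overlapping groups, and control array 4 was the highest in each. Asb2, a ligase adaptor abundant in muscle, fell by 1.28 ± 0.19 and Fbxo31, an F-box protein gene, by 0.77 ± 0.12. Of 28 proteasome genes, 12 fell (42.9%), 3 rose and 13 were not called, with a median of -0.10. Psmb5, the chymotrypsin-like subunit, was down by 0.64 ± 0.08. The summed proteasome level overlapped, at 235481 to 261286 on the control arrays and 225725 to 240617 on the p53 arrays.

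Energy metabolism fell across its branches, polyamine genes apart. Of 40 tested genes of mitochondrial respiration, 36 fell (90%) and none rose, with a median of -0.50. The counts were 18 of 20 for the citric acid cycle (90%), 20 of 24 for fatty acid oxidation (83.3%), 17 of 21 for glycolysis and glycogen (81%) and 14 of 18 for regulators of mitochondrial biogenesis (77.8%). Sdhc, a subunit of complex II, fell by 0.90 ± 0.10, Ndufa9, of complex I, by 0.65 ± 0.07, and Cpt2, which completes the carnitine shuttle, by 0.75 ± 0.06. Pdk2, the kinase that inhibits pyruvate dehydrogenase, fell by 1.22 ± 0.11.

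Slc2a4, the insulin-responsive glucose transporter GLUT4, was at 12.79, 12.62, 12.48 and 12.35 on the control arrays and at 11.44, 10.46, 11.24 and 11.38 on the p53 arrays. It fell 2.69-fold (-1.43 ± 0.21, adjusted p = 0.000539), with p53 array 2 the lowest. Perm1, a muscle regulator downstream of PGC-1, was at 12.79, 12.70, 12.60 and 12.20 against 11.64, 10.50, 11.23 and 11.36, and fell by 1.39 ± 0.24. Ppargc1a, which encodes PGC-1 alpha, fell by 0.52 ± 0.12 and Tfam, the mitochondrial DNA packaging factor, by 0.27 ± 0.03. A few members rose against their lists: Pgam1, a glycolytic mutase of most tissues, rose by 1.07 ± 0.11, and Idh3b, a subunit of the NAD-linked isocitrate dehydrogenase, by 0.88 ± 0.08. The widest such rise, 1.375, was that of Angptl4 in the fatty acid oxidation list, where 2 genes rose.

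Of 7 tested polyamine genes, 2 rose (28.6%) and 3 fell (42.9%), the fallen count being 1 without both arrays numbered 3. Srm, the spermidine synthase, rose by 1.10 ± 0.09 and Sat1, the spermidine acetyltransferase of polyamine breakdown, by 0.89 ± 0.07, whereas Smox, the spermine oxidase, was at 11.96, 11.24, 11.65 and 11.80 against 11.13, 10.20, 10.73 and 11.21 and fell by 0.85 ± 0.24 (adjusted p = 0.0154). Oaz2, an antizyme that restrains polyamine synthesis, fell by 0.87 ± 0.05.

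Stress responses went several ways. Of 25 tested genes of ATF4 and the amino acid response, 7 rose (28%) and 9 fell (36%). Chac1, a glutathione-degrading enzyme, was at 12.66, 12.23, 12.97 and 11.94 on the control arrays and at 10.78, 9.57, 10.99 and 9.84 on the p53 arrays, a 4.45-fold fall (-2.16 ± 0.36, adjusted p = 0.000984). Gpt2, the mitochondrial alanine transaminase, fell by 1.57 ± 0.17 and Atf5 by 0.68 ± 0.07. In the same list Psat1, of serine synthesis, rose by 1.19 ± 0.11 and Slc7a5, a carrier of large neutral amino acids, by 1.17 ± 0.10. Atf4 itself fell by 0.16 ± 0.03.

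Of 13 genes of ER stress, 8 rose and 3 fell, among the risen Pdia4 at 0.57 ± 0.06. Of 21 genes of the Nfe2l2 antioxidant response, 9 fell and 6 rose. Nqo1, a quinone reductase, fell by 0.97 ± 0.08, while Gpx1, a glutathione peroxidase, rose by 0.75 ± 0.07. Of 18 heat shock genes, 5 fell, led by the muscle chaperones Hspb3 (-0.99 ± 0.10) and Hspb2 (-0.87 ± 0.10), and 4 rose, led by Dnajb1 at 0.60 ± 0.05. Mt1 and Mt2, both metallothionein genes, differed by 0.21 ± 0.12 (adjusted p = 0.156) and -0.11 ± 0.09 (adjusted p = 0.314) and passed no threshold.

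Clock genes fell in 12 of 14 cases (85.7%), with a median of -0.53. Tef, a clock-controlled transcription factor gene, was at 11.31, 11.44, 11.64 and 11.58 on the control arrays and at 10.71, 10.40, 10.67 and 10.43 on the p53 arrays, and fell by 0.94 ± 0.10. Nr1d2, which encodes REV-ERB beta, fell by 0.81 ± 0.08 and Per2 by 0.62 ± 0.05. The hour at which muscles were taken is not in the labels, and its part in these falls was not tested. Of 18 immediate early genes, 9 rose (50%) and none fell, with Zfp36, an RNA-decay factor gene, up by 0.78 ± 0.08. Of 19 ribosomal protein genes, 16 rose (84.2%) and 1 fell, with Rps6 up by 0.74 ± 0.08 and Rpl19 by 0.67 ± 0.04.

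Growth signalling showed no single direction: of 19 genes of insulin and IGF signalling, 3 rose and 6 fell, and of 21 genes of myostatin, activin and BMP signalling, 7 rose and 5 fell. Id2, an inhibitor of basic helix-loop-helix factors, was at 9.42, 9.34, 9.32 and 9.42 against 10.42, 10.60, 10.41 and 10.38. Its rise of 1.08 ± 0.05 had an adjusted p of 7.75e-06. Bmpr1a, a BMP receptor, fell by 0.75 ± 0.07, and Deptor, an inhibitor of mTOR, by 0.68 ± 0.07.

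The remaining large falls belonged to no list. Smtnl2, a smoothelin-like gene of muscle, fell by 1.69 ± 0.20, Tpra1 by 1.57 ± 0.27, Dusp26, a dual-specificity phosphatase, by 1.46 ± 0.20 and Macrod1, a mitochondrial macrodomain protein, by 1.43 ± 0.15. A probe annotated to Vmn1r65, a vomeronasal receptor gene, was at 12.04, 11.68, 12.10 and 11.39 against 9.59, 9.37, 10.01 and 9.29, a fall of 2.24 ± 0.20, and the annotation of that probe was not checked against its sequence. Among the rises, Gal, which encodes the neuropeptide galanin, was at 10.28, 11.17, 10.08 and 10.55 against 11.59, 12.63, 12.65 and 12.41, and rose 3.48-fold (1.80 ± 0.30).

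The response to the p53 plasmid was set beside that to immobilization of control limbs, which shares no array with it. Of 10842 genes tested there, 553 rose (5.1%) and 690 fell (6.36%). Among genes tested in both experiments, 325 genes rose in both, which is 11% of the 2945 that rose with the plasmid and 58.9% of the 552 that rose with immobilization, and 556 fell in both, which is 18.8% of the 2965 and 80.8% of the 688. A further 83 genes fell with the plasmid and rose with immobilization, and 19 did the reverse. The difference of the 2 effects, tested in 1 fit of all 17 arrays, was called higher for the plasmid in 1418 of 11432 genes (12.4%) and lower in 1255 (11%). Different numbers of arrays and spreads stand behind the 2 counts of calls.

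Lists with many such differences included those of the proteasome, the clock and proliferation. Of 28 proteasome genes, 20 were lower with the plasmid than with immobilization and none higher, and of 20 atrophy genes, 9 were lower and none higher. Fbxo32 fell by 1.51 with the plasmid and rose by 1.90 with immobilization, a difference of -3.41 ± 0.32 (adjusted p = 5.79e-05), and Trim63 showed -1.49 and 1.51, a difference of -2.99 ± 0.36. Gadd45a (-1.21 and 2.52) and Hdac4 (-0.73 and 2.28) differed by -3.73 ± 0.53 and -3.02 ± 0.39. Chac1 differed by -2.94 ± 0.48, although its own immobilization effect of 0.79 passed no threshold.

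Of 14 clock genes, 12 were lower with the plasmid and none higher. Of 36 proliferation genes, 22 were higher and none lower, with Ccnd1 at 1.69 and 0.27 (difference 1.41 ± 0.33, adjusted p = 0.00779). Macrophage genes mostly did not pass this test, with 5 of 30 higher and 1 lower: Trem2 differed by 0.88 ± 0.59 (adjusted p = 0.321), while Chil3 differed by 1.63 ± 0.27 (adjusted p = 0.00116). The 3 immobile control arrays were themselves far apart in the summed macrophage list, at 47358, 66119 and 170743.

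Perm1 and Smox fell in both experiments, and fell less with the plasmid, by 0.93 ± 0.30 (adjusted p = 0.0401) and 1.40 ± 0.36 (adjusted p = 0.0128). Cdkn1a was raised by 1.02 with the plasmid and by 1.52 with immobilization, and this difference of -0.50 ± 0.27 passed no threshold (adjusted p = 0.21). In immobile p53 mKO limbs Cdkn1a differed from immobile control limbs by -0.55 ± 0.17, with an adjusted p of 1. In that comparison limma called 0 genes, and 319 had an unadjusted p under 0.05.

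**Figure D5:**
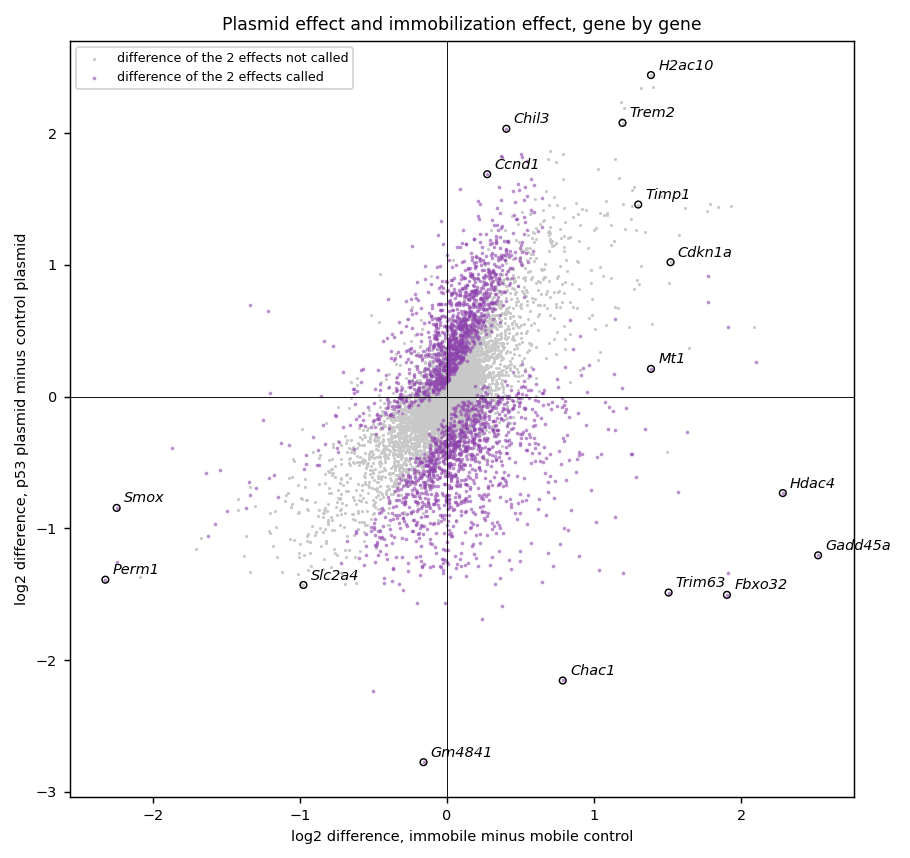
Each of 10059 genes is placed by its log2 difference with immobilization (horizontal axis) and with the p53 plasmid (vertical axis), and is purple where the difference of the 2 effects was called. Fbxo32, Trim63, Gadd45a and Hdac4 lie at the lower right, raised by immobilization and lowered with the plasmid, whereas Cdkn1a and Timp1 lie at the upper right.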

How the data were processed

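The authors deposited 1 log2 expression value per probe and array for 17 single-colour bead arrays. The normalization, background correction and log base are not given in the sources used here. Array medians of 8.48 to 8.50 and a lowest value of 8.21 show values aligned between arrays with a floor, so changes of dim genes are understated, and precision is limited by how many arrays there are. Per the labels' protocols, total RNA was extracted with TRIzol, amplified and labelled with biotin.

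The 25697 probes include 23978 paired with 1 gene symbol, 0 with several and 1719 unnamed. Each gene was represented by its brightest probe over the 17 arrays, and 4777 genes had several. A gene was tested when above the array's 40th percentile in at least 4 of the 8 arrays (3 for fits of 9 or 17 arrays). The arrays of 1 group alone could meet this. Differences were fitted with lmFit and eBayes of limma 3.58.1 (R 4.3.3), tested first on simulated data, with Benjamini-Hochberg adjustment over all genes tested. No covariates were used.

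The 47 gene lists hold 1170 distinct genes, 1035 with a probe. The comparison, the genes and the lists were chosen with earlier results of these data known. The rule for named genes took the 16 largest rises and 12 largest falls without overlap, the 4 smallest p of each list, and a set list of genes of p53, wasting and fibres, 2 of them without a probe. Ak1, Ccr2, Cd163, Cd5l, Cdk1, Ctss, Cybb, Marco, Msr1, Plk2 and Tigar were added after their values were seen. Angptl4, C1qa, C1qb, C1qc, Cd28, Cd3d, Cd3e, Cd3g and Tpm3 were added last, and are not in the counts of named genes given below. Promoter windows of 300 bases came from RefSeq (GRCm38.p6) and matched 8428 of the 10398 tested genes. Alternatives covered filters, normalization, probe choice, variance model, array weights, a replicate block and leaving out arrays.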

Additional observations from a re-analysis of the deposited data

Results flagged for a closer look

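For each named gene, each group of 4 arrays was examined for an array set apart from the other 3, by Dixon's ratio of gap to range above 0.829. Of 290 groups, 21 were flagged, where chance flags about 1 in 20.

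Control array 4 stood apart for 6 genes of different kinds. It was high for Hdac4 at 10.54 (others 9.75 to 9.81), Runx1 at 9.40 (8.89 to 8.96) and Deptor at 10.43 (10.21 to 10.24), and low for Dusp26 at 11.84 (12.24 to 12.25). It was also low for the myeloid genes Lat2, at 10.28 (10.69 to 10.76), and Laptm5, at 13.93 (14.14 to 14.18).

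p53 array 2 stood apart as the most displaced array. It was the lowest p53 array for Smtnl2 at 9.66 (10.38 to 10.52), Ckm at 14.84 (15.16 to 15.21), Ccng1 at 12.66 (13.01 to 13.08), Cpt2 at 10.28 (10.51 to 10.54), Ulk1 at 9.21 (9.37 to 9.39) and Tigar at 8.59 (8.77 in each of the others). It was the highest for Cdk1 at 10.98 (10.49 to 10.56).

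The other flags were single values. Control array 3 was low for Fbxo31 at 9.75 and high for Marco at 8.56, control array 2 was high for Dnajb1 at 10.73 and low for Ak1 at 13.59, and control array 1 was high for Nr1d2 at 11.07. p53 array 3 was high for Hspb3 at 11.58, p53 array 4 was low for Bid at 9.58, and p53 array 1 was low for Runx1 at 9.37. The Ak1 and Tigar flags rest on small gaps beside 3 equal values.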

How the results depend on the processing

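Under the 22 alternatives tried for the plasmid comparison, the counts of risen and fallen genes stayed within 1.5 times 3144 and 2969. Leaving out arrays, 1 or a numbered pair at a time, gave 2673 to 3065 risen and 2592 to 2851 fallen genes. Centring each array on its median gave 2868 and 3299. The counts of genes that differed from immobilization, 1418 and 1255, ran from 979 to 1823 and from 968 to 1726 as single arrays were left out, both highest without immobile control array 1. Of 138 named genes called, 132 kept the call under every alternative. Those that did not were Atf4 (adjusted p = 0.65 with all 17 arrays in the fit), Chrna1 (up to 0.14), Ckm (up to 0.0671), Gadd45a (up to 0.0948), Runx1 (up to 0.0523) and Smox (up to 0.0756), the last 5 each highest without a numbered pair of arrays. Trp53inp1, not called, turned to 0.036 with the mean of all its probes. The uncalled genes Cd163 and Marco crossed 0: they ran from -0.085 to 0.029 and from -0.033 to 0.05 as arrays were left out, and Marco gave -0.005, -0.012 and -0.008 with quantile normalization, median centring and array weights. Of 2068 list counts, 118 moved by over 1.5 times, most of them counts of a few genes.

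Same-numbered arrays of the plasmid groups correlated at -0.001 to 0.242 in their deviations from group means, with 1 of 4 pairs over 0.1, so the numbers were not taken to pair them. With the replicate block, 3032 genes rose and 2830 fell, 1538 and 1388 differed from immobilization, and Gadd45a had an adjusted p of 0.0557. Arrays cannot tell cell number from RNA per cell, and the plasmid was not checked at Trp53. Values near the floor are compressed, and those near the top of the scale may be.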
